A study of Mus musculus with 24 samples.

Results

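The comparison described here sets 2 mouse embryonic stem cell lines side by side after 2 days as embryoid bodies (EBs), the floating aggregates in which stem cells leave pluripotency. Its members were taken by title: the 2 libraries of the line called KO+N-KR EED and the 2 libraries of the line called KO, both at EB day 2, which makes 4 of the 24 RNA-seq libraries of the series. All 23284 genes of the deposited count table were read, and 13296 of them had a mean of at least 1 CPM (counts scaled to library size) over the series. The KO cells are C57BL/6 embryonic stem cells with a conditional Eed allele (Eed f/f) that were given 4-OH tamoxifen, at 800 nM, to delete Eed. The KO+N-KR cells carry the same deletion, with the same treatment in their label, and in addition an EED transgene called N-KR. The labels do not spell N-KR out, and they give the genotype of both lines as EED KO. The rest of the series has the f/f line without tamoxifen and a KO line with wild-type EED (KO+WT), and every line was sampled in the condition labelled 3i and at EB days 1 and 2. Stem cells were grown in serum with LIF on mouse embryonic fibroblast feeders, and polyadenylated RNA was sequenced. No label says whether the libraries of a group came from separate cultures, how many clones a line holds or which promoter drives the transgene. The transgene and any other difference between the 2 lines therefore cannot be told apart.

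EED is a core subunit of Polycomb repressive complex 2 (PRC2), which methylates histone H3 at lysine 27. EED binds that mark and stimulates the catalytic subunit EZH2, and without EED the complex falls apart and the mark is lost. In stem cells the mark lies over developmental regulators, imprinted genes and cell cycle inhibitors that are kept silent. As EBs form, naive pluripotency genes are switched off and formative epiblast genes, among them the de novo DNA methyltransferases, are switched on.

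The 4 libraries held 12702480 and 8995902 counts for KO and 12092844 and 8237205 counts for KO+N-KR. The 2 libraries of a line differed by little more than sampling noise: their counts varied 1.12 times (KO) and 1.10 times (KO+N-KR) as much as random sampling alone would give. Between the lines the same measure was 15.5 and 11.3. Each pair was therefore summed and counted as 1 sample, so the day 2 comparison has no replicate spread and no p-value of its own. A gene was called higher or lower by size alone: at least 2-fold in scaled CPM, with at least 5 CPM in the higher of the 2 sums. Intervals given with ratios cover counting error only. The only test was edgeR's quasi-likelihood test over all 12 sums of the series, with terms for line and for state. Its p-value sets the average difference between the 2 lines in 3i and at EB days 1 and 2 against a residual spread. That spread is pooled over all 4 lines of the series, and the day 2 libraries are included. A difference that was uneven between the states could still pass. Genes said to rise or fall across states were higher or lower in KO+N-KR than in KO by this test. The words describe no change over time.

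Eed itself was counted at 102 and 101 CPM in the KO libraries and at 121 and 121 CPM in the KO+N-KR libraries. The f/f sum was at 131 CPM and the KO+WT sum at 187 CPM. Both KO+N-KR libraries were above both KO libraries, and the difference was small, at a log2 ratio of 0.24. These counts cover the whole gene, and the sources do not state which part was deleted, so they check neither the deletion nor the transgene. Markers of the feeder fibroblasts were present at low level in both lines. The 16 marker genes summed to 101 and 98.6 CPM in the KO libraries and to 115 and 114 CPM in the KO+N-KR libraries. Of the 13 that could be tested none was called at day 2. The smooth muscle actin gene Acta2 was at 0.672 and 0.589 CPM in the sums and the collagen gene Col1a1 at 18.5 and 21.9 CPM. The part of feeder RNA in the results was not tested.

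At EB day 2 many more genes were lower in KO+N-KR than were higher. Called by size, 285 of 13296 genes were lower (2.14%) and 86 were higher (0.647%). The median log2 ratio over all tested genes was 0.0045. Many called genes lay close to the 2-fold limit. Among lower genes, 94 were at 2-fold to under 2.2-fold, and a further 140 genes with 5 CPM were at 1.8-fold to under 2-fold. Among higher genes, 35 lay just inside the limit and 54 just outside. A 4-fold difference was reached by 30 lower and 4 higher genes. In the pairs of libraries with the same number, 192 of the 285 lower and 56 of the 86 higher genes were at least 2-fold in both. Across the 3 states edgeR called 1356 genes lower (10.2%) and 1005 higher (7.56%) in KO+N-KR, with a fitted coefficient of variation of 7.91%. Of the genes called at day 2, 184 of 285 and 58 of 86 were among them in the same direction, in a fit that includes the day 2 sums.

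**Figure D1:**
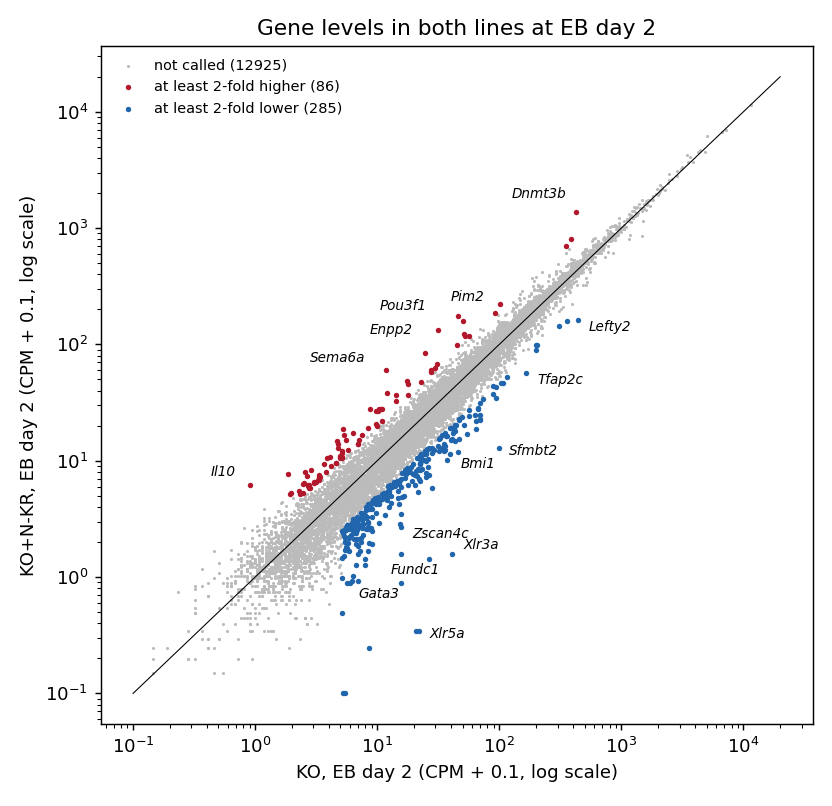
Level of each of the 13296 tested genes in the KO sum (x axis) and the KO+N-KR sum (y axis) at EB day 2, in CPM on log axes with a small offset so that zeros can be drawn. Red points are the 86 genes called higher, blue points the 285 called lower, and the line marks equal levels; the Xlr genes lie farthest below it and Dnmt3b is the most abundant red point.

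One chromosome stood apart from the rest. The 702 tested genes of chromosome 8 had a median log2 ratio of -0.37 at day 2, while the medians of the 19 other chromosomes, Y left out, lay between -0.039 and 0.063. The ratio was below 0 for 626 of the 702 genes (89.2%). Of these genes 36 were called lower (5.13%) and 0 higher, against 245 lower (1.96%) and 86 higher (0.688%) of the 12496 placed on other chromosomes. In the other states the chromosome 8 median was -0.33 (3i) and -0.39 (EB day 1), and across states edgeR called 430 of the 702 genes lower (61.3%) and 3 higher. The level was lower in both lines that carry a transgene: the day 2 chromosome median was -0.40 for KO+N-KR against f/f and -0.35 for KO+WT against KO. It was 0.00025 for KO+N-KR against KO+WT and -0.038 for KO against f/f. DNA copy number was not measured, and the part of this chromosome-wide shift in any single gene's difference was not tested. Of the genes named below, Klf2, Junb, Ier2, Ankrd37, Tubb3, Slc25a4 and Sfrp1 lie on chromosome 8. Without chromosome 8, a choice made after seeing the data, 249 genes were lower and 86 higher.

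**Figure D2:**
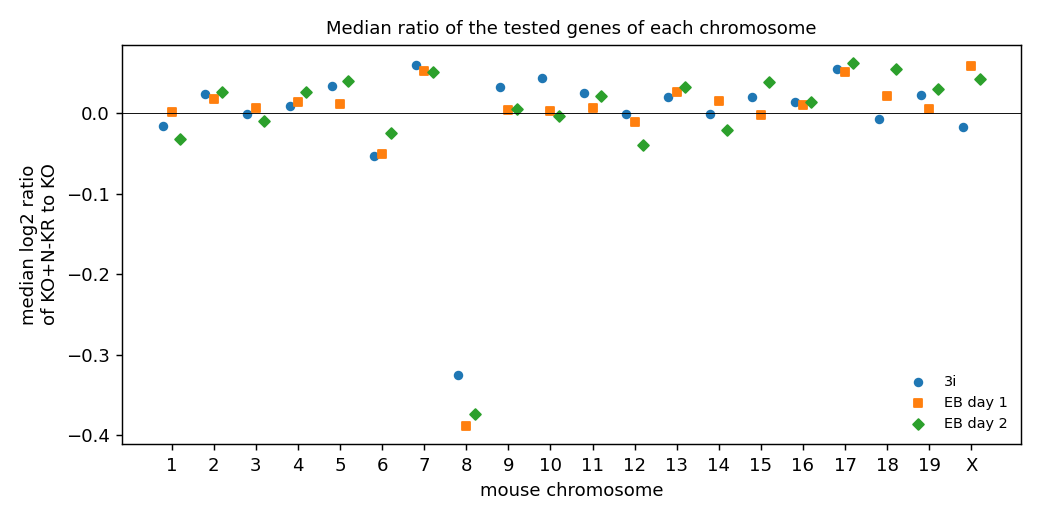
Median log2 ratio of KO+N-KR to KO over the tested genes of each autosome and X (x axis), in 3i, at EB day 1 and at EB day 2. Chromosome 8 lies between -0.39 and -0.33 in the 3 states, apart from all others.

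Of the gene lists examined, the formative epiblast genes had the most members called higher. Of 17 tested, 7 were called higher, against 0.647% of all genes, and none lower, with a median log2 ratio of 0.95 beside 0.0045 for all genes. Dnmt3b, a de novo DNA methyltransferase, was at 428 and 419 CPM in the KO libraries and at 1367 and 1377 CPM in the KO+N-KR libraries. That is a 3.21-fold higher level, with a log2 ratio of 1.68 (95% interval 1.65 to 1.72). The second de novo enzyme, Dnmt3a, was at 382 and 380.2 CPM against 825 and 794 CPM, a log2 ratio of 1.08. Their catalytically inactive partner Dnmt3l had a ratio of 0.16 and the maintenance enzyme Dnmt1 one of 0.070, and neither was called. Of 13 tested genes of DNA methylation and its removal, Dnmt3a and Dnmt3b were the 2 called, both higher, against 0.647% of all genes.

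The promoter of Dnmt3b is shown because the gene is the most abundant of those called higher and those of Sfmbt2 and Bmi1 because both encode Polycomb proteins and were lower. Each line gives the 200 bases before the RefSeq start on the plus strand of GRCm38.p6, from 5′ to 3′, with every CG in capitals. The counts themselves were made on mm9.
Dnmt3b, chr2:153649249-153649448: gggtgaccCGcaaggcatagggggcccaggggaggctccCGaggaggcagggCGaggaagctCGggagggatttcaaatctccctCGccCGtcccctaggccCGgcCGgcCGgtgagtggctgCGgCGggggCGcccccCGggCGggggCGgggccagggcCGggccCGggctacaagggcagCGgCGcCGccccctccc
Sfmbt2, chr2:10370251-10370450: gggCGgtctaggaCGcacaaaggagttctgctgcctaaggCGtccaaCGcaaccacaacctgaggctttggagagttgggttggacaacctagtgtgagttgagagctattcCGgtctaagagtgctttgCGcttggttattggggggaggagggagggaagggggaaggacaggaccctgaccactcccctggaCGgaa
Bmi1, chr2:18676818-18677017: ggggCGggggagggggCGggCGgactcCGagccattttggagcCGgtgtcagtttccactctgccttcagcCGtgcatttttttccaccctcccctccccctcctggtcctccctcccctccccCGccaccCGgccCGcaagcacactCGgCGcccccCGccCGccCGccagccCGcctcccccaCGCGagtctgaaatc
The windows hold 20, 7 and 17 CG dinucleotides. At least as many occur in 12.6%, 42.9% and 18.2% of the same 200-base windows of the 27025 promoters in the RefSeq table. CG pairs are the sites that the DNMT3 enzymes methylate, and CG-rich promoters are where PRC2 usually binds. Neither methylation nor binding was measured in these libraries, so the letters are a description only.

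Among the other formative genes, Pou3f1, a POU transcription factor of the epiblast and later of neural cells, was at 51.2 and 48.5 CPM in KO and at 164 and 154 CPM in KO+N-KR. It was 3.16-fold higher at day 2 and rose across states (log2 fold change 1.19 ± 0.17 SE, edgeR adjusted p = 6.78e-04). Foxd3, a forkhead repressor needed in the epiblast, was at 18.3 and 16.5 against 46.3 and 43.5 CPM. The zinc finger genes Sall2 and Zic5 had log2 ratios of 1.46 and 1.06, and Grhl2, a regulator of epithelial genes, one of 1.08. Otx2, which drives exit from the naive state, was at 49.2 CPM in the KO sum and 98.4 CPM in the KO+N-KR sum and fell just short of the 2-fold rule at a log2 ratio of 0.999, or 1.03 in the replicate 1 libraries alone. Fgf5, the classical marker of the primed epiblast, was at 24.5 and 22.5 CPM against 46.4 and 41.4 CPM, a ratio of 0.89, and was not called. In the other direction, Tcf15 and Cdh2 had ratios of -0.47 and -0.46. Of the 17 genes edgeR called 5 higher across states, against 7.56% of all genes, and 1 lower, against 10.2%. For Dnmt3b and Dnmt3a the edgeR adjusted p across states was 0.0502 and 0.412. In 3i the 2 had log2 ratios of -0.17 and -0.27.

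**Figure D3:**
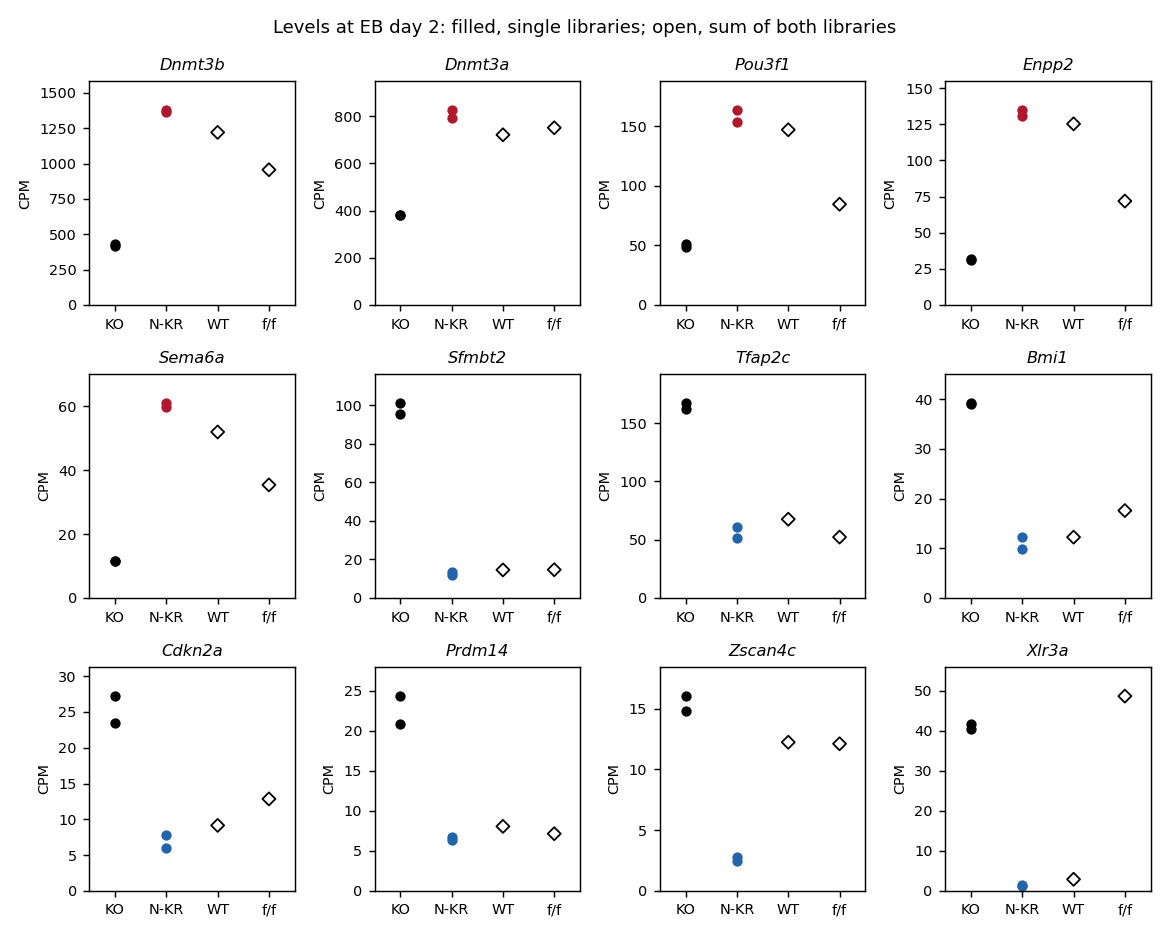
Levels of 12 genes at EB day 2 in CPM, each panel with its own axis from 0: filled points are the 2 KO and the 2 KO+N-KR libraries, open diamonds the sums of both KO+WT and both f/f libraries. The 2 libraries of a line lie close together. All 12 genes were called by size, so the lack of overlap between the lines is no replicate check. Zscan4c is low in KO+N-KR alone and Xlr3a is low in both lines with a transgene.

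Naive pluripotency genes lay on the lower side. Of 15 tested, 6 were called lower, against 2.14% of all genes, and none higher, with a median log2 ratio of -0.68. Prdm14, a repressor of FGF signalling and DNA methyltransferase genes, was at 20.9 and 24.3 CPM in KO and at 6.76 and 6.41 CPM in KO+N-KR. Its log2 ratio was -1.75, and it also fell across states (edgeR adjusted p = 0.0217). The nuclear receptor gene Nr5a2 had a ratio of -1.43, Tcl1, a cofactor of AKT, one of -1.32 and Dppa3 one of -1.21. Tfcp2l1, a core factor of the naive network, was at 103 and 104 CPM against 49.6 and 42.4 CPM. Klf2 was at 201 and 200.2 CPM against 103 and 94.2 CPM, a ratio of -1.02 on chromosome 8 that was -0.96, outside the rule, in the replicate 1 libraries alone. Other naive factors were not called. Nanog had a ratio of -0.68, Esrrb one of -0.12 and Klf4 one of -0.10, while Fgf4 and Nr0b1 had ratios of 0.49 and 0.37. In 3i the median of the 15 genes was 0.10, and at EB day 1 it was -0.18. Of 10 genes of general pluripotency none was called: Pou5f1 (OCT4) was at 774 and 906 CPM in the sums and Sox2 at 536 and 512 CPM.

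Among Polycomb genes themselves, 1 of 12 tested PRC2 genes and 1 of 20 tested PRC1 genes were called lower and none higher. Over all genes 2.14% were called lower. Ezh2 was at 217 CPM in KO and 218 CPM in KO+N-KR, and the scaffold subunit gene Suz12 at 295 and 278 CPM. The called PRC2 gene was Phf19, an accessory subunit that brings the complex to CG-rich DNA. It was at 22.9 and 20.8 CPM in KO and at 9.98 and 8.34 CPM in KO+N-KR, with log2 ratios of -1.25 at day 2, -0.011 at day 1 and 0.047 in 3i. The called PRC1 gene was Bmi1 (Pcgf4), which sets the activity of canonical PRC1 and restrains the Cdkn2a locus in adult stem cells. It was at 39.2 and 39.0 CPM against 12.4 and 9.79 CPM, a log2 ratio of -1.79, with -0.79 at day 1 and -0.058 in 3i. Its relative Pcgf5 was lower without being called, at -0.94, while Cbx7, the main CBX subunit of stem cells, and Phc1 had ratios of 0.35 and 0.47 and rose across states (edgeR adjusted p = 0.0131 and 0.00374). Skp1a, the SCF ubiquitin ligase subunit named in the series title, was at 384 and 401 CPM, and none of 12 SCF genes was called.

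Sfmbt2, a Polycomb-like gene that is imprinted and silenced by H3K27 methylation on the maternal allele, had the largest lower ratio among called genes outside the Xlr cluster and Fundc1. It was at 95.4 and 101 CPM in the KO libraries and at 13.5 and 11.9 CPM in the KO+N-KR libraries. The level was 7.62-fold lower, a log2 ratio of -2.93 (95% interval -3.13 to -2.75), and the gene fell across states (-1.99 ± 0.30 SE, edgeR adjusted p = 0.00115). The ratio was -0.93 in 3i and -1.84 at day 1. The KO sum was at 36.1, 51.8 and 98.5 CPM in 3i and at days 1 and 2, and the KO+N-KR sum at 18.9, 14.4 and 12.9 CPM. Of the 12 tested genes with H3K27me3-dependent imprinting it was the 1 called, against 2.14% of all genes called lower. The median of the 12 was 0.014. Of 28 tested classically imprinted genes 2 were called lower, against 2.14% of all genes. H19, the maternally expressed long noncoding RNA, was at 63.6 and 64.5 CPM against 19.5 and 17.0 CPM, a ratio of -1.80, and Nnat had a ratio of -1.02, or -0.94 in the replicate 1 libraries alone. On the other side, the paternally expressed gene Peg3 was at 187 CPM in KO and 372 CPM in KO+N-KR. Its ratio of 0.99 missed the size rule, and it rose across states (edgeR adjusted p = 6.31e-05). The antisense gene Peg3as was called higher, but the sources do not say whether counting used strand, so reads of the 2 genes cannot be told apart.

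Developmental regulators that PRC2 silences in stem cells were low in both lines and mostly lower in KO+N-KR. Of 39 homeobox genes outside the Hox clusters, 13 could be tested. Of these, 5 were called lower, against 2.14% of all genes, and none higher, with a median of -1.05. At day 1 the median was -0.17 and in 3i it was -0.037. Meis2, a cofactor of HOX proteins, was at 7.98 and 8.46 CPM against 1.24 and 2.06 CPM, a ratio of -2.33. Irx2 (-1.33) and En2 (-1.01) were also called, each below 10 CPM in KO. Only 5 of 39 Hox genes reached the level needed for testing and none was called. All 39 Hox genes together summed to 25.2 and 25.2 CPM in the KO libraries and to 10.1 and 10.6 CPM in the KO+N-KR libraries. Of 20 mesoderm genes 6 were tested and Meis2 and Twist1 were called lower, against 2.14% of all genes, with a median of -1.55. In the replicate 2 libraries alone En2 (-0.71) and Twist1 (-0.96) were outside the rule. The primitive streak genes T and Mixl1 were near 1 CPM in both lines and were not tested, and Eomes was at 18.0 and 10.8 CPM.

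Gata3, a driver of trophoblast and many other lineages, was at 5.32 and 5.89 CPM in KO and at 0.989 and 0.484 CPM in KO+N-KR, a 6.49-fold lower level. In 3i its ratio was 0.20 and at day 1 0.0014, and it was not called across states (edgeR adjusted p = 0.241). Tfap2c (AP-2 gamma), which acts in trophoblast, germ cells and naive cells, was at 167 and 162 CPM against 60.5 and 51.6 CPM, and it fell across states (-0.95 ± 0.16 SE, edgeR adjusted p = 0.00215). Of 10 trophoblast genes tested these 2 and the simple keratin gene Krt19 (-1.07) were called lower, against 2.14% of all genes. The median was -0.58. Krt19 was at -0.79 in the replicate 2 libraries alone, outside the rule. The more abundant simple keratin genes Krt8 and Krt18 had ratios of -0.38 and 0.084. Some genes outside the lists were lower as well. Lrrc15 was at 16.0 and 14.8 CPM against 3.46 and 3.26 CPM, and Nrk, an X-linked kinase of the placenta, at 17.6 and 18.0 CPM against 5.69 and 6.65 CPM. Ceacam1 and Col13a1 had ratios of -2.78 and -2.63 at under 10 CPM.

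Cdkn2a, which encodes the cell cycle inhibitors INK4A and ARF and is a textbook Polycomb target, was at 23.5 and 27.2 CPM in KO. In KO+N-KR it was at 7.83 and 6.05 CPM, a log2 ratio of -1.81, and it fell across states (-1.41 ± 0.19 SE, edgeR adjusted p = 5.37e-04). It was the 1 called of 6 tested CDK inhibitor genes, against 2.14% of all genes called lower. The neighbouring Cdkn2b had a ratio of -0.41, and Cdkn1a (p21) one of -0.11.

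Of 14 tested germline genes, 5 were called lower, against 2.14% of all genes, and none higher. Their median log2 ratio was -0.93 beside 0.0045 for all genes. Stra8 apart, the called genes lay close to the 2-fold limit. Stra8, the switch to meiosis, was at 7.14 and 6.32 CPM against 0.907 and 0.726 CPM, and it fell across states (edgeR adjusted p = 0.00370). Piwil2, a PIWI protein gene of the piRNA pathway, was at 45.8 and 46.6 CPM against 23.7 and 21.3 CPM and also fell across states (edgeR adjusted p = 0.00181). Sohlh2, Sycp1 and Tdrd1 had ratios of -1.04, -1.02 and -1.10. With 1 library per line, Piwil2 and Sohlh2 were outside the rule in replicate 1 (-0.95 and -0.96) and Sycp1 and Tdrd1 in replicate 2 (-0.90 and -0.71). Ddx4 and Mov10l1, at -0.94 and -0.93, fell across states without being called by size. Dazl had a ratio of -0.68, and Sycp3, Mael and Hormad1 had ratios between -0.088 and 0.042.

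**Figure D4:**
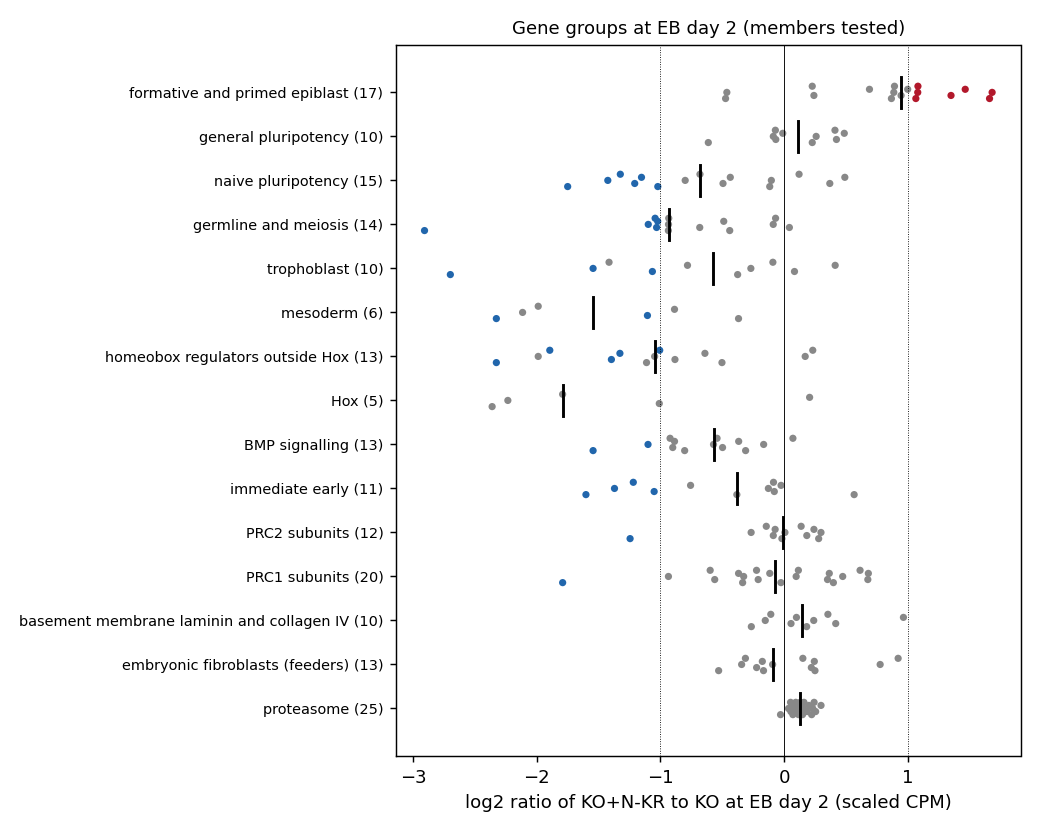
Log2 ratio of KO+N-KR to KO at EB day 2 for the tested members of 15 gene groups, 1 point per gene, with the number tested in brackets. Red points were called higher, blue points lower, grey points not; black bars are group medians and dotted lines mark 2-fold. The formative group lies to the right of 0 (median 0.95) and the naive, germline, mesoderm and homeobox groups to the left, while proteasome genes stay near 0.

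Among secreted signals, Lefty2, a feedback inhibitor of Nodal, was at 442 and 437 CPM in KO and at 160.3 and 167 CPM in KO+N-KR. It was lower in all 3 states, with ratios of -1.30 in 3i, -2.03 at day 1 and -1.44 at day 2 (edgeR adjusted p = 8.46e-05). Its neighbour Lefty1 had ratios of -1.45, -0.85 and -0.20 in the same order. Nodal itself was at 92.5 and 82.7 CPM. Lefty2 was the 1 called of 10 Nodal pathway genes, against 2.14% of all genes called lower. BMP genes lay on the lower side, with 2 of 13 called lower, against 2.14% of all genes, and a median of -0.57. The ligand gene Bmp7 had a ratio of -1.10, or -0.97 in the replicate 2 libraries alone. Id1, a direct BMP target that blocks bHLH factors, was at 34.6 and 34.7 CPM against 12.4 and 11.2 CPM. It was lower in KO+N-KR than in KO across states (edgeR adjusted p = 6.78e-04). Id2, Id3 and Id4 had ratios of -0.92, -0.90 and -0.80 and were not called. Of 13 tested Notch pathway genes, the ligand gene Dll3 was called higher (1.45), against 0.647% of all genes. The modifier Lfng was called lower (-1.04), against 2.14%, and was at -0.48 in the replicate 2 libraries alone. Dll1 had ratios of 3.03, 1.99 and 0.83 in 3i and at days 1 and 2 and rose across states (edgeR adjusted p = 0.00456). The WNT inhibitor gene Notum was lower (-1.26), the 1 called of 10 WNT feedback genes, against 2.14% of all genes called lower. The median of the 10 was -0.48, with 3 of them above 0. The lowest ratio of the 10, -2.98, belonged to a gene under 5 CPM in both sums. Across states 5 of the 10 fell, against 10.2% of all genes, and 1 rose, against 7.56%.

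Immediate early genes, which answer within minutes to growth factors and to handling of cells, lay mostly on the lower side. Of 11 tested, 10 had a ratio below 0, and the median was -0.38. Jun was at 47.7 and 45.0 CPM against 14.5 and 16.7 CPM, and Fos at 39.2 and 39.0 CPM against 18.2 and 20.1 CPM. Fosb had a ratio of -1.22, and Junb, on chromosome 8, one of -1.37. These were the 4 called of 11, all lower, against 2.14% of all genes. Fos was at -0.96, outside the rule, in the replicate 2 libraries alone. Egr1 was at 43.4 and 42.6 CPM and Ier2 at 101 and 95.3 CPM, and neither was called.

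The higher genes outside the formative list were of mixed function. Enpp2, which encodes the lysophospholipase autotaxin, was at 31.0 and 31.9 CPM in KO and at 131 and 135 CPM in KO+N-KR. Its log2 ratio was 2.06 at day 2, 2.00 at day 1 and 2.51 in 3i, so that it was higher in KO+N-KR in all 3 states (edgeR adjusted p = 2.69e-05). In 3i its level was low, at 0.595 CPM in the KO sum and 3.83 CPM in the KO+N-KR sum. Sema6a, a transmembrane guidance molecule, was at 11.7 and 11.5 CPM against 61.0 and 59.9 CPM, 5.15-fold higher. Pim2, a serine/threonine kinase that supports growth and survival, was at 43.9 and 46.9 CPM against 175 and 177 CPM. Il10, an interleukin gene, had the largest higher ratio (2.77, 95% interval 2.18 to 3.71), from 0.807 to 6.03 CPM. The neuroendocrine factor genes Insm1 and Neurod1 had ratios of 1.83 and 1.66. Insm1 is on a list of neuroectoderm genes, of which 5 were tested, and was the 1 called higher, against 0.647% of all genes. Pax6 was the 1 called lower, against 2.14%, at -1.12, or -0.19 in the replicate 2 libraries alone. The median of the 5 neuroectoderm genes was -0.30, with 3 of them below 0. Neurod1 is on a list of other textbook Polycomb targets, of which 17 were tested. It was the 1 called higher, against 0.647% of all genes. Cdkn2a and Gata3 were the 2 called lower, against 2.14%, and the median of the 17 was -0.56. The chemokine gene Cxcl12 was at 11.9 and 38.1 CPM. The receptor gene Ror1, the activin inhibitor gene Fst and the noncoding RNA Miat had ratios of 2.06, 1.35 and 1.64 at under 10 CPM.

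The largest lower ratios among called genes belonged to the Xlr family and its neighbours on the X chromosome. The family is a cluster of X-linked genes in which imprinted members are known. Of 9 tested, 7 were called lower, against 2.14% of all genes, and all 9 fell across states, against 10.2%. One of the 7, Xlr4a, was under 5 CPM in the replicate 2 libraries alone. Xlr3a was at 40.4 and 41.6 CPM in KO and at 1.57 and 1.33 CPM in KO+N-KR, and Xlr5a at 21.8 and 21.7 CPM against 0.247 and 0.242 CPM. The f/f sum was at 48.6 CPM for Xlr3a and 19.3 CPM for Xlr5a, and the KO+WT sum at 2.89 and 0.430 CPM. At day 2 the family was thus low in both lines that carry a transgene. The ratios of KO+N-KR to KO in 3i and at day 1 were -4.42 and -4.07 for Xlr3a and -5.75 and -5.58 for Xlr5a. On the X chromosome 7 neighbouring genes were called lower in a row, from Xlr4a to Xlr3b, and they include DXBay18 and Gm14685. DXBay18 had no read in KO+N-KR and was at least 36.2-fold lower, against a floor of 3 counts in the sum. Xlr transcripts share 40.9% to 90.7% of their 50-base windows with other members, so the value of a single Xlr gene is uncertain.

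Fundc1, an X-linked gene for a mitochondrial outer membrane receptor of mitophagy, had another pattern. It was at 15.0 and 16.3 CPM in KO and at 1.07 and 2.06 CPM in KO+N-KR, with the f/f sum at 15.6 CPM and the KO+WT sum at 16.3 CPM. It was thus low in KO+N-KR alone among the 4 lines, with ratios of -3.90 in 3i, -3.64 at day 1 and -3.33 at day 2 (edgeR adjusted p = 1.29e-08). The genes on either side, Efhc2 and Kdm6a, had ratios of -0.059 and 0.24. The Zscan4 genes, markers of the 2-cell-like state, were also low in KO+N-KR alone. The 6 neighbouring genes Zscan4a to Zscan4f were all called lower, against 2.14% of all genes. Zscan4c was at 16.0 and 14.8 CPM against 2.47 and 2.78 CPM, with 12.1 CPM in f/f and 12.2 CPM in KO+WT, and it fell across states (edgeR adjusted p = 0.00452). Its ratio was -2.21 in 3i and -0.53 at day 1. Zscan4 transcripts share 47.9% to 89.0% of their windows, so the values of single genes are uncertain. The Y-linked gene Eif2s3y was at 24.5 and 24.0 CPM in KO and at 83.1 and 84.4 CPM in KO+N-KR, with 37.2 CPM in f/f and 33.3 CPM in KO+WT. The 6 tested Y genes had a median log2 ratio of 0.72. Against f/f that median was 0.040 for KO+N-KR and -0.60 for KO.

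For the called genes as a whole, the levels in the other lines at day 2 can be set beside these. The 285 lower genes had a median of 12.9 CPM in KO, 4.81 in KO+N-KR, 6.53 in KO+WT and 7.14 in f/f. The 86 higher genes had a median of 5.20 CPM in KO, 13.9 in KO+N-KR, 12.3 in KO+WT and 8.75 in f/f. For single genes, the KO+WT and f/f sums were 14.5 and 14.6 CPM for Sfmbt2, 8.05 and 7.14 CPM for Prdm14, and 1221 and 957 CPM for Dnmt3b. For Enpp2 they were 125 and 71.9 CPM, the first near the KO+N-KR level. Called by the same size rule, KO+N-KR differed from KO+WT in 12 higher (0.0903%) and 14 lower (0.105%) genes and from f/f in 36 higher (0.271%) and 31 lower (0.233%). These comparisons share the KO+N-KR sum with the one described here.

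The same 2 lines were compared in 3i and at EB day 1, in libraries that share none with day 2. By the size rule 61 genes were higher (0.459%) and 96 lower (0.722%) at day 1, and 42 higher (0.316%) and 69 lower (0.519%) in 3i. Of the 86 genes higher at day 2, 82 had a ratio above 0 at day 1 and 55 in 3i, against 50.4% and 51.2% of all tested genes. Of the 285 lower genes, 257 were below 0 at day 1 and 223 in 3i. A 2-fold difference in the same direction was reached at day 1 by 24 higher and 74 lower genes and in 3i by 8 and 39, and in all 3 states by 3 and 22. The median of the higher genes went from 0.22 in 3i to 0.71 at day 1 and 1.18 at day 2, where they were chosen, and that of the lower genes from -0.35 to -0.67 and -1.25.

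**Figure D5:**
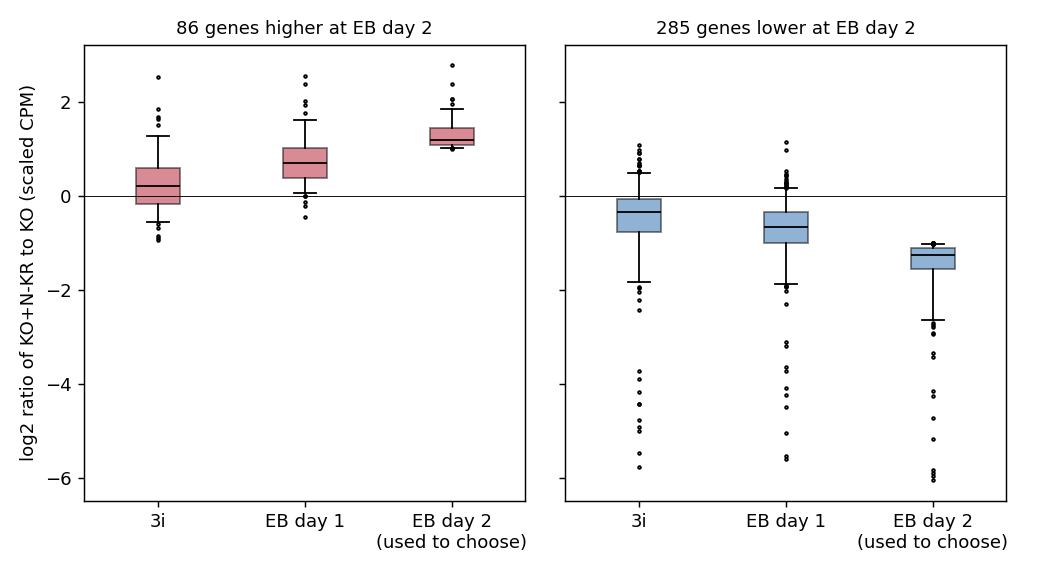
Log2 ratios of KO+N-KR to KO in 3i, at EB day 1 and at EB day 2 for the 86 genes called higher (left) and the 285 called lower (right) at EB day 2. Boxes give quartiles and medians, whiskers the 5th and 95th percentiles and points the genes beyond. At day 2 no gene lies inside the 2-fold limit because the genes were chosen there. The medians are nearer to 0 in 3i than at EB day 1.

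Among other groups, none of 25 proteasome genes, 26 cytosolic ribosomal protein genes, 16 cholesterol synthesis genes, 14 heat shock and unfolded protein genes or 10 housekeeping genes was called. Primitive and visceral endoderm genes were not called either, 10 of 17 having been tested. Their median ratio was 0.36, with 7 of the 10 above 0. Across states 4 rose, against 7.56% of all genes, and none fell. The 3 below 0 were those of Gata4, Gata6 and Sox7, at -0.55, -0.89 and -0.81, and Gata6 met the rule in the replicate 2 libraries alone (-1.19). Among those above 0, the endocytic receptor gene Cubn was at 41.0 and 54.8 CPM and rose across states (edgeR adjusted p = 0.00868). Of 10 laminin, collagen IV and related basement membrane genes none was called. Lama1 was at 29.6 and 57.8 CPM, a ratio of 0.96, and 4 of the 10 rose across states, against 7.56% of all genes. Of 12 genes of the hypoxia list 2 were called lower at day 2, against 2.14% of all genes. They were Vegfa at -1.22 and Ankrd37 at -1.03, and Bhlhe41 was called higher at 1.05, against 0.647% of all genes. In the replicate 2 libraries alone Ankrd37 (-0.94) and Bhlhe41 (0.85) were outside the rule. The neuronal tubulin gene Tubb3, on chromosome 8, was at 39.9 and 42.6 CPM against 16.2 and 18.5 CPM. It was lower in KO+N-KR than in KO across states (edgeR adjusted p = 4.95e-04).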

How the data were processed

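Poly(A) RNA-seq of 24 libraries (4 lines, 3 states, 2 libraries each) was deposited by the authors as 1 table of raw read counts per gene. Reads were aligned with STAR 2.5.2b to mm9, and DESeq2 was used, per the submitters' processing notes. The counting tool, its strand setting and the gene models were not given in the sources used here. Of 30 columns in the deposited table, 6 matched no sample and were not used.

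The 2 libraries of a group were summed, which left 12 samples. Counts were scaled with TMM (edgeR 4.0.16, limma 3.58.1, R 4.3.3), libraries and sums separately, and log2 ratios carry a prior count of 2. Intervals are exact binomial, at 95%, for counting error only, since reads without molecular identifiers are not independent molecules. Genes with a mean of at least 1 CPM over the 12 sums were tested. Day 2 calls need 2-fold and 5 CPM in the higher sum. The test across states was edgeR's quasi-likelihood F-test with genotype and state, Benjamini-Hochberg adjusted over 13296 genes, at 0.05, with 6 residual degrees of freedom. At unadjusted p under 0.05 it found 4331 genes. On simulated counts of the KO+N-KR against KO comparison (13289, 13291 and 13280 genes, 200 changed) it recovered 94.5%, 100% and 100% of changes of 1.5-fold, 2-fold and 4-fold, with 8, 11 and 7 false calls. The size rule recovered 0.5%, 51.5% and 98.5%, with 0 false calls. These rates describe the simulated counts only and do not measure recovery or false calls in the real data. Real differences could depend on state. Gata3 had a log2 ratio of -2.70 at EB day 2 and of 0.0014 at EB day 1, and was not called across states (edgeR adjusted p = 0.241). The real lines also differed by the shift of chromosome 8.

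Named genes were the 15 highest and 15 lowest ratios among calls that were 2-fold in both library pairs, predicted genes left out, the called members of the gene lists, a fixed list, and the 5 highest and 5 lowest across states. Other list members and Peg3as were named after their values were seen. The comparison, the lists and the rule were chosen with earlier results of these data known. Chromosomes and promoters come from RefSeq tables of GRCm38.p6, matched by name for 13198 genes. Replicate numbers did not pair the samples: deviations of the KO and KO+N-KR libraries from their means correlated at 0.0014 (range over 66 pairs of groups -0.031 to 0.033). Scaling, filters, thresholds, left-out libraries and DESeq2 1.42.0 were tried as alternatives. Values of some single genes are not reported here.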

Additional observations from a re-analysis of the deposited data

Results flagged for a closer look

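For 2 genes called at EB day 2 the ratio of KO+N-KR to KO had the opposite sign in 3i in both pairs of libraries. Vegfa had a log2 ratio of -1.22 at EB day 2 and of 0.92 in 3i, with up to 141 CPM there. Irx2 had a log2 ratio of -1.33 at EB day 2 and of 0.91 in 3i, at no more than 3.92 CPM. The difference between the states was not tested.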

How the results depend on the processing

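The day 2 counts of genes called by size followed the thresholds. With a minimum of 10 CPM there were 56 higher and 166 lower genes, and with 1 CPM 127 higher and 478 lower. At least 1.5-fold gave 403 and 869, and at least 4-fold gave 4 and 30; looser or stricter limits change these counts by construction. Leaving out libraries gave 81 to 98 higher and 279 to 318 lower genes. Library totals gave 78 and 314, DESeq2 size factors 89 and 272. The size rule joined with an adjusted p from a 24-library fit with the replicate block gave 86 and 285. Within groups that fit found almost no spread (coefficient of variation 0.988%), so genes past the size rule also passed that p, and these counts are no sign of stability. Across states edgeR called 374 higher and 553 lower genes with KO and KO+N-KR alone, 121 and 236 without EB day 1 and 450 and 674 without EB day 2, fits with fewer samples; without 3i it called 1328 and 1631. One library per group gave 756 to 906 higher and 923 to 1102 lower, and DESeq2 998 and 1254. Without chromosome 8, which was added after seeing the data, the counts were 1002 and 926. Among the 80 named genes called by size none changed sign under these alternatives. Among those not called, Ezh2, Krt18, T, Mixl1, Klf4 and Acta2 did with 1 library per line or library totals. Of the 80, 12 fell short of the rule without replicate 1, 4 without replicate 2 and 1 with DESeq2 factors. Pax6 (log2 ratio -0.19 without replicate 1) and Lfng (-0.48) moved most among those, and the cause was not tested. Genes near 5 CPM are limited by depth.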

Other observations

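Ranked by level, which was done after the values were seen, the 10 most abundant genes of each direction at EB day 2 include several that belong to none of the gene lists. G3bp2, which encodes a stress granule protein, was at 341 and 357 CPM in the KO libraries and at 702 and 706 CPM in the KO+N-KR libraries. Its log2 ratio was 1.01, or 0.98, outside the rule, in the replicate 2 libraries alone. G3bp2 was not called across states (edgeR adjusted p = 0.0546). Slc7a3, a cationic amino acid transporter gene, was at 99.3 and 102 CPM against 222 and 226 CPM and rose across states (edgeR adjusted p = 0.00602). The small GTPase gene Arl4c and the septin gene Sept1 had log2 ratios of 1.26 and 1.18 and also rose across states (edgeR adjusted p = 0.00172 and 1.66e-04). In these genes the libraries of the 2 lines did not overlap. That follows from choosing genes at least 2-fold apart and is no replicate check.

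On the lower side, Dusp9, an X-linked phosphatase gene that restrains ERK signalling, was at 356 and 349 CPM in KO and at 155 and 163 CPM in KO+N-KR. H2afy, which encodes the histone variant macroH2A1, was at 193 and 202 CPM against 98.4 and 99.0 CPM. Its log2 ratio was -1.01, or -0.97, outside the rule, in the replicate 1 libraries alone. Whsc1 (NSD2), a histone H3 lysine 36 methyltransferase gene, was at 105 and 107 CPM against 45.0 and 49.1 CPM. All 3 fell across states, with edgeR adjusted p-values of 0.00367, 0.00809 and 1.05e-04. The mitochondrial ADP/ATP carrier gene Slc25a4 (-1.11) and the WNT antagonist gene Sfrp1 (-1.18) were lower as well, and both lie on chromosome 8, whose genes were lower as a whole.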
